A study of Mus musculus with 10 samples.

Results

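The genes of the Notch pathway that are best known from the artery wall were followed in the aortae of young and old mice. They are 10 genes, taken by symbol from the 55453 symbols of the deposited count table: the receptors Notch1, Notch2, Notch3 and Notch4, the ligands Jag1, Jag2 and Dll4, and the target genes Hey1, Hey2 and Heyl. All 10 had enough counts to be tested. The aortae came from 10 male C57BL/6 mice, 5 aged 14.5 weeks (young) and 5 aged 92.5 weeks (old), with 1 RNA library per mouse and no treatment in either group. The mice of both groups were killed on the same occasion and perfused with saline, and the fat around the vessel was stripped off. Each library therefore held the RNA of all cell types that remained in the wall.

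Notch receptors are cell surface proteins that are switched on by ligands of the Jagged and Delta-like families on a neighbouring cell. Ligand binding lets the ADAM protease and then the gamma-secretase complex cut the receptor, and the freed intracellular part joins the DNA-binding protein RBPJ in the nucleus and raises transcription of genes such as those of the Hey family, which encode repressors. In arteries, Notch2 and Notch3 are known from smooth muscle cells, Notch1, Notch4 and Dll4 from the endothelium, and Jag1 from both.

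Notch2 and Jag2 passed the threshold (an adjusted p below 0.05) between the ages, and both were higher in old aortae. Notch2 was 1.26 times and Jag2 1.75 times as high as in young aortae, and for both genes each old library lay above each young one. The other 8 genes, including all 3 Hey genes, did not pass the threshold. The 2 called genes are 20% of the members, where 11.5% of the 14614 genes tested were called in either direction and 6.48% were called higher and 4.99% lower in old aortae. Groups that did not overlap were found for 9.92% of all tested genes, 5.37% with old aortae above and 4.55% with old aortae below. With 10 members, a single gene more or fewer would move this share by 10 percentage points. Of the 10 log2 fold changes, 4 were positive and 6 negative, with a median of -0.05, and the median of all tested genes was 0.0034.

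The sequences around the transcription start of 3 genes are given because Notch2 and Jag2 were the genes called and Hey2 was the only member with a window that held the searched RBPJ letters. They are RefSeq windows on GRCm38.p6 from 250 bases before to 50 bases after the start, on the strand of the gene: chr3:98013288-98013587 (+) for Notch2, chr12:112929446-112929745 (-) for Jag2 and chr10:30842734-30843033 (-) for Hey2. Capitals mark GTGGGAA, the core letters of the RBPJ motif, or its reverse complement TTCCCAC.
Notch2: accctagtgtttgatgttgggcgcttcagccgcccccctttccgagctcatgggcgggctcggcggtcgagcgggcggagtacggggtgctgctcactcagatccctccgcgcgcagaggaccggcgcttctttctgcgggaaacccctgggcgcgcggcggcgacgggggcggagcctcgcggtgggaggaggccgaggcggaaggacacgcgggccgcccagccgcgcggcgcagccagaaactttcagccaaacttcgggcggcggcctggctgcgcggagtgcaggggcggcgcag
Jag2: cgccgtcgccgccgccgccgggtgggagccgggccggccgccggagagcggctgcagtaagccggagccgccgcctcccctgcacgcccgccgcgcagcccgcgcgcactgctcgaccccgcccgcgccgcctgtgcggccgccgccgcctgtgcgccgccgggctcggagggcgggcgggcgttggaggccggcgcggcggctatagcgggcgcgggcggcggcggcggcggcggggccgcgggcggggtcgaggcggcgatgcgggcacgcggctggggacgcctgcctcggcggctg
Hey2: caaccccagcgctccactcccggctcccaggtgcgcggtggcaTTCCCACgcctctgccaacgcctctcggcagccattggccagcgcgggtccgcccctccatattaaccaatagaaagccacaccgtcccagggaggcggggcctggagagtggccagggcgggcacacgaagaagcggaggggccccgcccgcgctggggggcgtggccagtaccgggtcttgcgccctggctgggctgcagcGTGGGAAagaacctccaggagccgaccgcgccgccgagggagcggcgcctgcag
The Notch2 window was 73% G and C with 41 CpG pairs, and the Jag2 window was 86% G and C with 63 CpG pairs, where the median window of all 32851 held 52.7% G and C. In the Hey2 window the letters occurred 2 times, starting at 207 bases before the start on the opposite strand (position -207) and at 4 bases before it on the strand of the gene (position -4). Searched on both strands, they occurred in 6.38% of all windows and at least 2 times in 0.256%. A window was found for 8 of the 10 members, and the other 7 of these held no match. Hey1 and Heyl were not analysed here in this respect. A match of these letters is a description and does not show that RBPJ bound there.

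Receptors came first. Notch2 (chr3:98013527-98150361 on GRCm38) had normalized counts of 4579, 4175, 3991, 4071 and 4067 in young replicates 1 to 5. In old replicates 1 to 5 it had 5569, 4910.15, 4671, 5708 and 5223. The lowest old aorta, replicate 3, was above the highest young aorta, replicate 1, by a small margin. The mean was 4177 ± 234 in the young group and rose to 5216 ± 435 in the old group (SD, n = 5 mice per group). The log2 fold change was 0.33 with an SE of 0.0667, an interval of 0.18 to 0.47 and an adjusted p of 0.00695 (edgeR's quasi-likelihood test, Benjamini-Hochberg adjustment over all tested genes). It was called in all 18 alternative fits, with log2 fold changes of 0.29 to 0.36 and adjusted p-values of 0.000203 to 0.0233. A gene model of unknown function, Gm42820, overlaps 5.02% of the Notch2 exons on the same strand, so a part of these reads cannot be assigned with certainty. Because the tissue was sequenced in bulk, a change in the number of cells of a type and a change in RNA per cell cannot be told apart, here or for the genes that follow.

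Notch3 (chr17:32120820-32166852), a receptor that is largely restricted to mural cells, was not called. Its normalized counts were 2973, 3389, 2667, 3268 and 2754 in young replicates 1 to 5 and 3149.9, 2746, 2316, 3006 and 2854 in the old ones. The groups covered nearly the same range. Means of 3010.2 ± 314 (young) and 2814 ± 318 (old) gave a log2 fold change of -0.09 and an interval of -0.28 to 0.10 (adjusted p = 0.573, edgeR). An opposite-strand gene, Gm17276, overlaps 6.03% of its exons.

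Notch1 (chr2:26457903-26516663), the receptor needed for arterial development, had 1203, 1067, 1252, 1129 and 1082 normalized counts in young replicates 1 to 5. The old replicates had 960.4, 1269, 607, 1011 and 831. Old replicate 2 held the highest value of all 10 libraries, and the other 4 old aortae lay below all young ones. The means were 1147 ± 79.5 and 936 ± 243, and the log2 fold change of -0.29 (SE 0.16, interval -0.63 to 0.06) did not pass the threshold (adjusted p = 0.272, edgeR). Without old replicate 2 the log2 fold change was -0.43 with an adjusted p of 0.0562 in edgeR, the lowest of its 18 alternatives, whose highest was 0.433. Opposite-strand genes overlap 9.76% of the Notch1 exons.

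Notch4 (chr17:34564268-34588503), a receptor known chiefly from endothelial cells, had 575, 426, 511, 513 and 477 normalized counts in the young and 418, 698, 352, 480.1 and 459 in the old replicates 1 to 5. Old replicate 2 was again the highest library and old replicate 3 the lowest, as for Notch1. The means of 500.4 ± 54.5 and 482 ± 131 differed by less than the spread, with a log2 fold change of -0.05 (interval -0.39 to 0.29, adjusted p = 0.877, edgeR).

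Among the ligands, Jag2 (chr12:112907819-112929776) had the largest fold change of the 10 genes. Its normalized counts were 318, 309.9, 260.2, 291 and 188 in young replicates 1 to 5. In the old replicates they were 435, 579, 428, 450.2 and 485. The lowest old value, in replicate 3, exceeded the highest young value, in replicate 1. The old mean, 475 ± 61.9, was above the young mean of 273 ± 52.8 by a log2 fold change of 0.81 (SE 0.13, interval 0.51 to 1.10, adjusted p = 0.00233, edgeR). Over the 18 alternatives its log2 fold change was 0.69 to 0.86 and its adjusted p 1.46e-06 to 0.00757. No other annotated gene overlaps its exons.

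Jag1 (chr2:137081456-137116644), a ligand through which endothelial cells signal to smooth muscle cells, was not called. It had 2220.4, 1572, 1942, 1535 and 1667 normalized counts in the young and 1801, 1847, 1246, 2012 and 1701 in the old replicates 1 to 5. All old values but that of replicate 3 lay within the young range. Means of 1787 ± 289.8 and 1721 ± 288 gave a log2 fold change of -0.05 (interval -0.34 to 0.24, adjusted p = 0.864, edgeR).

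Dll4 (chr2:119325784-119335962), a ligand of arterial endothelial cells, was the most variable member. Its normalized counts were 249, 116, 153, 98.5 and 74.8 in the young and 122, 289, 69.0, 148 and 108 in the old replicates 1 to 5. Young replicate 1 and old replicate 2 stood above the rest of their groups. Its coefficient of variation was 49.5% (young) and 57.3% (old), and the log2 fold change of 0.09 had an interval of -0.82 to 1.00 (adjusted p = 0.917, edgeR). A change of 1.75 times in either direction, the size found for Jag2, lies within that interval. Gm14207, on the opposite strand, overlaps 5.56% of its exons.

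**Figure D1:**
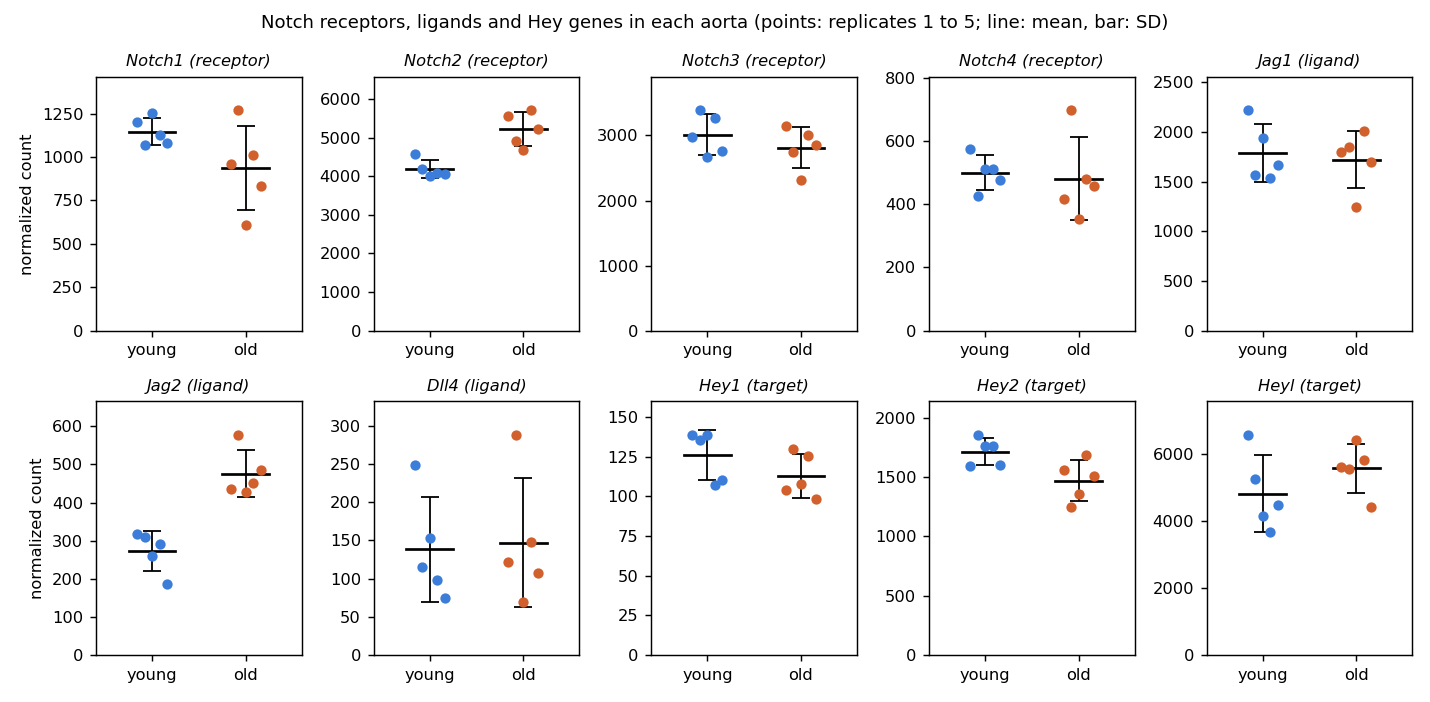
Normalized counts (vertical axes, each starting at 0) of the 10 genes in 5 young and 5 old aortae. Points are replicates 1 to 5 from left to right, lines are means and bars are SDs. The old points lie wholly above the young points for Notch2 and Jag2, whose means were 5216 and 475 in old aortae, and the groups overlap for the other 8 genes.

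The Hey genes encode basic helix-loop-helix repressors that Notch signalling switches on. None of the 3 was called by edgeR or by DESeq2, and 1, Hey2, had an unadjusted p below 0.05, as did 3902 of all 14614 tested genes. Hey2 (chr10:30832359-30842801), the member known from arterial smooth muscle and arterial endothelium, had 1591, 1859.6, 1767, 1764 and 1598 normalized counts in young replicates 1 to 5. The old replicates had 1559.95, 1246, 1359.8, 1684 and 1508. Only old replicate 4 reached into the young range. Means of 1716 ± 117 and 1471 ± 172 gave a log2 fold change of -0.21 (SE 0.08, interval -0.39 to -0.04). The unadjusted p was 0.0191 and the adjusted p 0.105 in edgeR, and over the 18 alternatives the adjusted p ranged from 0.0513 to 0.204.

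Heyl (chr4:123233556-123249875) had the most counts of the 3. It had 6577, 5237, 4132, 3667 and 4464 normalized counts in the young and 5604, 5541, 6428, 5831 and 4427 in the old replicates. Young replicate 1 was the highest library, whereas the other 4 young aortae were below all old ones but replicate 5. The log2 fold change was 0.22 with an interval of -0.11 to 0.54 (adjusted p = 0.392, edgeR), and without young replicate 1 it was 0.35 (adjusted p = 0.0605). Hey1 (chr3:8663359-8667256) was low, between 107 and 139 normalized counts in the young and between 98.2 and 129.7 in the old group. Its log2 fold change was -0.15 with an interval of -0.43 to 0.13 (adjusted p = 0.498, edgeR).

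**Figure D2:**
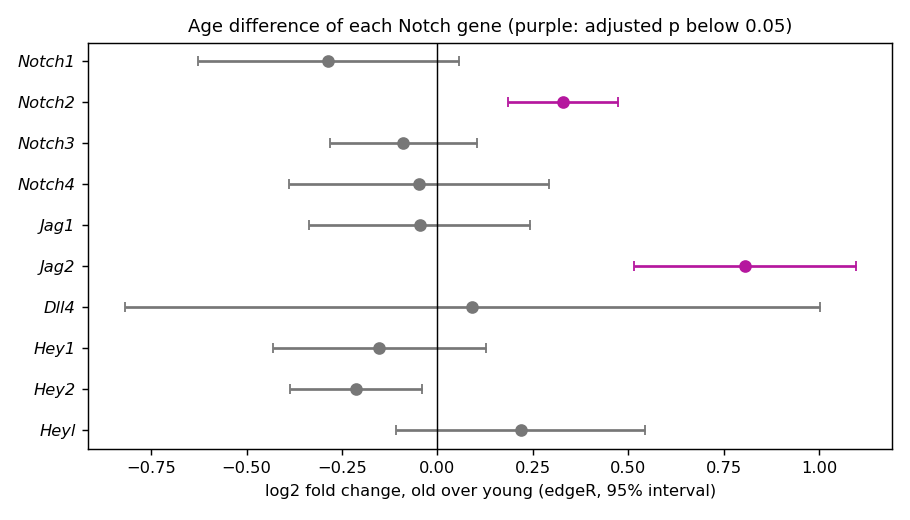
Log2 fold change of old over young aortae (horizontal axis) for the 10 genes, with 95% intervals from the edgeR fit of 5 against 5 mice. Notch2 and Jag2, in purple, have intervals above 0 (0.18 to 0.47 and 0.51 to 1.10) and adjusted p-values below 0.05, whereas the interval of Hey2 lies below 0 (-0.39 to -0.04) with an adjusted p of 0.105.

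An exact two-sided permutation test on each gene's mean normalized count, which cannot give a p below 0.00794 with 5 mice against 5, gave that smallest p for Notch2 and Jag2. Any gene whose groups do not overlap, 9.92% of all tested genes, gives this p, so it restates the separation described above. The same test gave 0.0397 for Hey2, 0.103 for Notch1 and 0.198 or more for the remaining 6 genes, without adjustment over the 10 tests.

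Levels of different genes were compared only per length, as normalized counts per kilobase of annotated exon. In young aortae Heyl was highest at 942 ± 223, followed by Notch2 at 387 ± 21.7, Hey2 at 374 ± 25.5, Notch3 at 372 ± 38.8 and Jag1 at 307 ± 49.7. The ranges of the neighbours Notch2, Hey2, Notch3 and Jag1 overlapped from each gene to the next, whereas Heyl stood above Notch2 in every young library. A wide gap followed, to Notch1 at 80.6 ± 5.58, Notch4 at 62.1 ± 6.76, Jag2 at 39.2 ± 7.59, Hey1 at 38.7 ± 4.88 and Dll4 at 35.9 ± 17.7. The last 3 could not be ordered beyond their spread.

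In old aortae Heyl was again highest, at 1089 ± 142 normalized counts per kilobase, and Notch2, at 484 ± 40.4, now stood clear of the next gene, Notch3 at 348 ± 39.3. Hey2 followed at 320.4 ± 37.4 and Jag1 at 295 ± 49.5, with overlapping ranges. Jag2 moved from place 8 to place 6, at 68.2 ± 8.88, where its range overlapped that of Notch1 at 65.8 ± 17.1. Notch4 at 59.7 ± 16.2, Dll4 at 38.2 ± 21.9 and Hey1 at 34.6 ± 4.21 completed the order without gaps between neighbours. Exon lengths were taken over all annotated transcripts, from 3265 bases for Hey1 to 14232 bases for Notch1, so that the levels depend on the annotation.

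**Figure D3:**
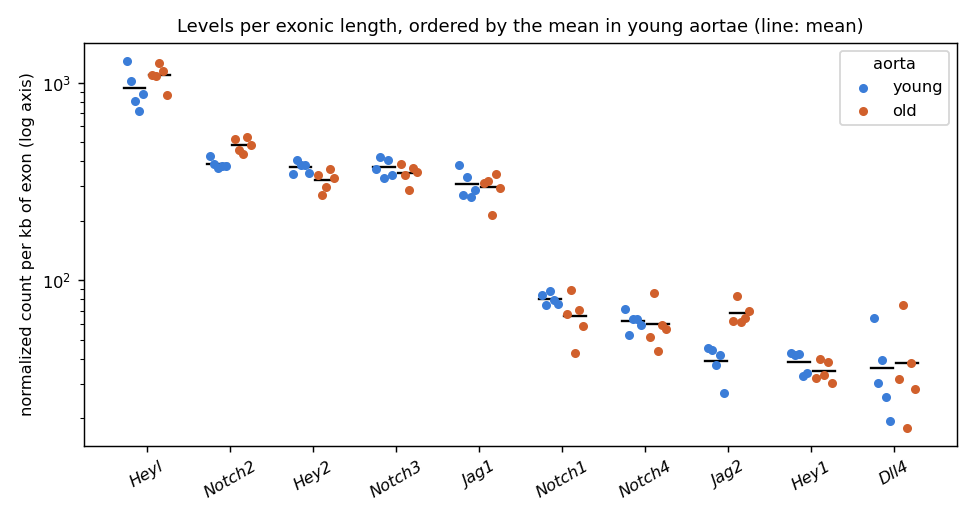
Normalized counts per kilobase of exon (vertical log axis) of the 10 genes in 5 young and 5 old aortae, ordered by the mean in young aortae. Points are libraries and lines are means. Heyl, Notch2, Hey2, Notch3 and Jag1 form an upper group with young means of 307 to 942, and the other 5 genes a lower group with young means of 35.9 to 80.6.

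The make-up of the receptor transcripts was described per length. Notch2 made up 43.0% ± 1.73 of the summed per-kilobase level of the 4 receptors in young aortae (40.8% to 44.8%) and 50.6% ± 2.46 in old aortae (46.9% to 53.8%). The share of Notch3 was 41.2% ± 2.89 in young and 36.3% ± 1.21 in old aortae. Those of Notch1 were 8.95% ± 0.854 and 6.82% ± 1.46, and those of Notch4 6.89% ± 0.749 and 6.23% ± 1.55. Among the 3 ligands Jag1 remained the main transcript, with 80.6% ± 3.38 in young and 73.7% ± 4.20 in old aortae. Jag2 held 10.4% ± 2.21 (8.10% to 12.9%) in young and 17.2% ± 2.51 (14.4% to 20.95%) in old aortae, and Dll4 9.03% ± 2.72 and 9.09% ± 3.84. Heyl held 68.9% ± 5.18 of the Hey transcripts in young and 75.2% ± 3.35 in old aortae, Hey2 28.2% ± 4.95 and 22.4% ± 3.34, and Hey1 2.88% ± 0.339 and 2.41% ± 0.301. The shares restate the levels above and were not tested.

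The cell types of the wall were followed by the summed normalized counts of marker lists. The markers of the tissue itself were present, with smooth muscle sums of 801591 to 1015000 in every library (1 of 10 markers, Smtn, was called higher by edgeR and 2 were called by DESeq2). The 15 endothelial markers summed to 26919 to 43911 in young and 16206 to 32671 in old aortae, with means of 33166 ± 7315 and 22007 ± 6542 (exact permutation p = 0.0476, adjusted p = 0.159 over the 10 lists). Of them 13 had a negative log2 fold change, with a median of -0.56, and 2, Tek and Icam2, were called lower by edgeR. Of the 15, 9 had an unadjusted p below 0.05 in edgeR and 7 were called by DESeq2. Of all 14614 tested genes, 3902 had an unadjusted p below 0.05 in edgeR, which called 6.48% higher and 4.99% lower. DESeq2 called 2325 of 17134 genes. Pecam1, the most abundant, fell short of the threshold, at 10988.5 ± 2371 normalized counts (young) against 6626 ± 2076 (old; log2 fold change -0.72, adjusted p = 0.0554, edgeR), and Robo4, the least abundant, 170.2 ± 51.9 and 155 ± 66.2 (-0.14, adjusted p = 0.804).

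Fibroblast markers summed to 193514 to 229504 in young and 133538 to 181929 in old aortae (exact permutation p = 0.00794, adjusted p = 0.0794), with 3 of 8 called lower and 1, Lum, higher by edgeR (5 called by DESeq2). Of all tested genes, 4.99% were called lower and 6.48% higher. Of the 8 markers, 3 had a positive and 5 a negative log2 fold change. The collagen genes Col1a1 (means of 58611 young and 31070 old) and Col3a1 (76905 and 40179) carried much of the sum, whose means were 218820 and 160217. The sum therefore does not measure the number of fibroblasts. Macrophage markers summed to 7592 to 10185 in young and 10151 to 20642 in old aortae (exact permutation p = 0.0159, adjusted p = 0.0794), with 4 of 7 called higher by edgeR, all 7 at an unadjusted p below 0.05 and all 7 called by DESeq2. For these and the following lists, the values over all genes were 3902 of 14614 at an unadjusted p below 0.05 and 2325 of 17134 called by DESeq2. The highest macrophage sum, 20642, and the highest lymphocyte sum, 783, were both in old replicate 3, in which Notch2 and Jag2 had their lowest old values. Lymphocyte sums ranged from 128 to 286 in the young and from 243 to 783 in the old group, with 1 of 5 tested markers called higher (3 called by DESeq2). Their list includes Ptprc (CD45), a marker of leukocytes in general, with means of 144 (young) and 246 (old) where the sums had means of 190 and 384. The lymphocyte sum is therefore not separate from the macrophages. Schwann cell sums were 890.3 to 1788 in young and 1273 to 1586 in old aortae (1 of 6 called higher, 1 called by DESeq2), and lymphatic endothelial sums 1327 to 2323 and 1226 to 1580.05 (none of 4 called in edgeR, 1 with an unadjusted p below 0.05 and 0 in DESeq2). Lyve1 alone held 772 (young) and 805 (old) of the mean lymphatic endothelial sums of 1652 and 1382. For adipocytes the sums were 2444 to 9012 and 1420.05 to 3597 (none of 6 called in edgeR, 3 with an unadjusted p below 0.05 and 1 in DESeq2). Striated muscle sums were 475 to 1977 and 753 to 1898 (1 of 5 called higher, 3 called by DESeq2), and red blood cell sums 692 to 3530.0 and 791 to 4397 (none of 4 called in edgeR, 0 with an unadjusted p below 0.05 and 0 in DESeq2). For these 6 lists and the smooth muscle list the exact permutation p was 0.0794 or more. The lymphatic marker Ccl21a was at 0 in all 10 libraries. Its symbol is annotated both on chromosome 4 and on scaffold JH584294.1. How reads that fit more than a single place were counted was not given in the sources used here, so the 0 does not show absence. The part of the cell types in the Notch2 and Jag2 differences was not tested.

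Of the 10 genes, Notch1 ordered the libraries most nearly as the endothelial markers did. Within each age group, the order of the 5 libraries by Notch1 was the order by the endothelial marker sum, in all 10 of 10 places. Both were highest in replicate 3 of the young and replicate 2 of the old aortae, and both were lowest in young replicate 2 and old replicate 3. For Notch4 the number of equal places was 5 of 10, 2 in young and 3 in old aortae. For Dll4 it was also 5, 0 in young and 5 in old aortae, so the old libraries had the endothelial order. The number was 3 for Notch2, Notch3, Jag1, Jag2 and Hey1, and 2 for Hey2 and Heyl. Lower numbers of this kind also arose with other lists, among them 7 of 10 places for Hey1 and the red blood cell sum and 6 for Dll4 and the macrophage sum. Notch4 and Jag2 each had 5 with the lymphatic endothelial sum, and Hey2 had 5 with the smooth muscle sum. In young aortae all 5 places were equal for Dll4 and the macrophage sum. The same held for Hey1 with the red blood cell sum and with the Schwann cell sum. The matches, that of Notch1 included, were noticed after the values of 10 genes and 10 lists were seen and are given as a description. The endothelial sum itself rests largely on Pecam1 and Vwf, with young means of 10988.5 and 7701 where the sum had a mean of 33166. Old replicate 2, the highest old library for Notch1, Notch4, Dll4, Jag2 and Hey1, also held the highest endothelial sum of the old aortae and the highest share of mitochondrial counts, 11% against 4.50% to 6.51% in the other 9 libraries.

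Set against the endothelial sum, Notch1 reached 35.4 ± 4.93 normalized counts per 1000 endothelial marker counts in young and 42.9 ± 4.68 in old aortae, with overlapping ranges of 28.5 to 39.6 and 37.4 to 48.1. Notch4 had 15.4 ± 2.33 in young (11.6 to 17.8) and 22.1 ± 2.14 in old aortae (20.5 to 25.8). For Dll4 the values were 4.09 ± 1.54 and 6.31 ± 1.64, and for Jag2 8.51 ± 2.35 and 22.5 ± 4.25. These ratios carry the fall of the endothelial sum in their denominator and were not tested.

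**Figure D4:**
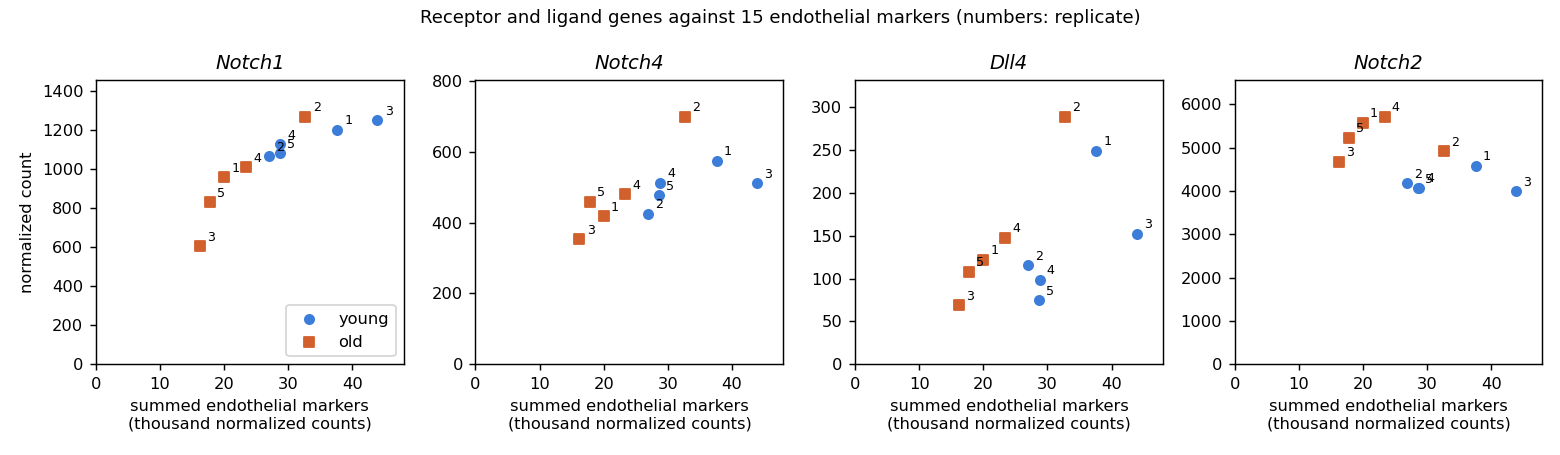
Normalized counts of Notch1, Notch4, Dll4 and Notch2 (vertical axes, from 0) against the summed normalized counts of 15 endothelial markers divided by 1000 (horizontal axes), in 5 young (circles) and 5 old (squares) aortae, with replicate numbers. Notch1 rises with the marker sum in the order of the libraries within both groups, whereas Notch2 is at 4671 or more in every old aorta at endothelial sums from 16206 to 32671.

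The other genes of the pathway were described from a list of 54, of which 50 could be tested. Of these, 1 was called higher and 5 lower in old aortae, 12% of those tested, close to the 11.5% of all genes. The median log2 fold change was -0.05, with 18 positive and 32 negative. The largest difference was in Dner (chr1:84369839-84696221), a non-canonical ligand known from neurons. It had 71.6, 75.5, 85.7, 73.4 and 104.5 normalized counts in the young and 24.0, 5.45, 24.2, 28.9 and 36.0 in old replicates 1 to 5. Every old aorta was below every young one. The young mean of 82.1 ± 13.7 fell to 23.7 ± 11.3 in the old group (log2 fold change -1.77, SE 0.31, adjusted p = 0.00277, edgeR).

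Of the 10 genes for receptor cleavage, 2 fell and none rose in edgeR, where 4.99% of all tested genes were called lower. DESeq2 called 3, adding Ncstn, a subunit of gamma-secretase, whose old libraries (1535 to 1645 normalized counts) all lay below the young ones (1698 to 1800.2) and whose adjusted p in edgeR was 0.107 (log2 fold change -0.12). Adam17 (chr12:21323509-21373632), a protease that can shed the outer part of the receptor and of many other membrane proteins, had 1235, 1197, 1191, 1254 and 1146 normalized counts in the young and 1014, 851, 829, 957 and 846 in old replicates 1 to 5. The groups were well apart, and the log2 fold change was -0.41 (SE 0.07, adjusted p = 0.00151, edgeR). Iah1, on the opposite strand, overlaps 4.35% of the Adam17 exons. Aph1b (chr9:66775202-66795490), a subunit of gamma-secretase, fell from 559 ± 40.1 to 427 ± 39.2 (log2 fold change -0.38, SE 0.08, adjusted p = 0.00731). Its neighbour and paralog Aph1c had a log2 fold change of 0.23 (adjusted p = 0.389), and reads shared by such similar genes may have been split between them. In total 9 of the 10 cleavage genes had a negative log2 fold change.

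Of the 10 corepressor genes, Ctbp1 (chr5:33247723-33274994), a transcriptional corepressor, and Hdac2 (chr10:36974544-37001889), a histone deacetylase, were called lower, where 4.99% of all tested genes were. Ctbp1 fell from 3181 ± 119 to 2770.0 ± 72.1 (log2 fold change -0.19, SE 0.05, adjusted p = 0.0217) and Hdac2 from 1301 ± 64.9 to 1101 ± 67.3 (-0.23, SE 0.06, adjusted p = 0.0216), without overlap between groups for either gene. Old aortae lay wholly below young ones for 4.55% of all tested genes. Ctbp1 and Hdac2 act in many pathways besides Notch. Ctbp1 was no longer called without young replicate 4 (adjusted p = 0.0620, edgeR) or old replicate 5 (0.0548), and Hdac2 was no longer called without young replicate 3 (0.05003). Among the 12 genes for endocytosis and turnover, Numbl (chr7:27258433-27282144), an adaptor related to the Notch antagonist Numb, rose from 1073 ± 66.9 to 1257 ± 95.7 (log2 fold change 0.24, SE 0.06, adjusted p = 0.0321), with overlapping groups. Numbl kept its call in fits that left out young replicate 1, old replicate 1 or old replicate 2, and lost it in the other 7 fits that left out 1 mouse, with an adjusted p of up to 0.0860.

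In the nuclear complex none of 8 genes was called by edgeR or DESeq2 (2 had an unadjusted p below 0.05, as did 3902 of all 14614 tested genes). Rbpj itself was at 1528 ± 74.2 (young) and 1547 ± 113 (old) normalized counts (log2 fold change 0.03, adjusted p = 0.832, edgeR). None of the 5 glycosylation genes and none of the 3 tested further targets was called by either tool, and none had an unadjusted p below 0.05. Hes1, the classical target outside the Hey family, had a log2 fold change of 0.21 (adjusted p = 0.504) and Nrarp, a target that feeds back on the pathway, one of -0.40 (adjusted p = 0.484). Gm38287, on the opposite strand, overlaps 79.4% of the Nrarp exons, so the Nrarp value may include reads of that gene.

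**Figure D5:**
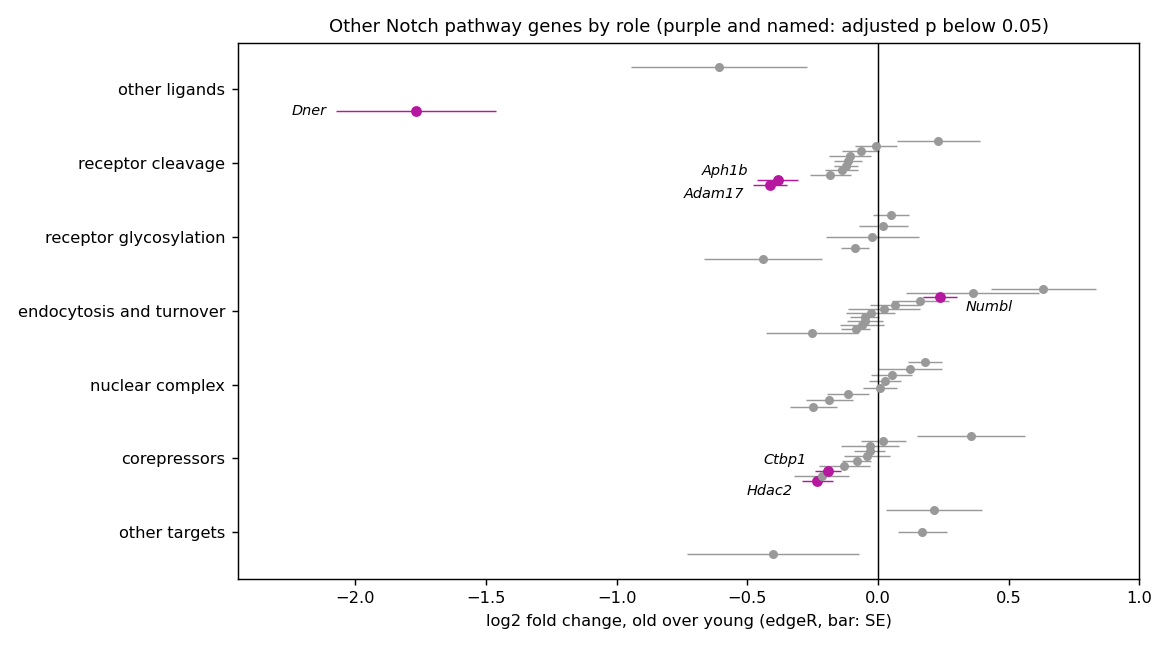
Log2 fold change of old over young aortae (horizontal axis, bars: SE of the edgeR fit of 5 against 5 mice) for the 50 tested genes of the wider Notch pathway, grouped by role. The 6 called genes are purple and named. Dner lies farthest from 0 at -1.77, and Numbl, at 0.24, is the called gene to the right of 0.

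Of 16 genes known from arterial endothelium, 4 were also among the 10 members. In edgeR none was called higher and 2 were called lower, 12.5% of those tested. This is close to the 11.5% of all tested genes called in either direction, of which 4.99% were lower. Of the 16, 13 had a negative log2 fold change (median -0.19) and 7 an unadjusted p below 0.05 in edgeR. Of all 14614 tested genes, 3902 had such an unadjusted p. DESeq2 called 3, adding Bmx (log2 fold change -0.81, adjusted p = 0.0717 in edgeR), where it called 2325 of 17134 genes. Efnb2 (chr8:8617434-8661242), the ligand of the ephrin family that marks arteries and a known Notch target, had 2196, 1879, 2371, 1801 and 1712 normalized counts in young replicates 1 to 5. The old replicates had 1483, 1189, 1113, 1697 and 1359. The highest old value, in replicate 4, was just below the lowest young value, in replicate 5. Efnb2 fell from 1992 ± 279.7 to 1368 ± 234 (log2 fold change -0.53, SE 0.12, adjusted p = 0.0151, edgeR). Acvrl1 (chr15:101128522-101145336), an endothelial receptor of the TGF-beta family, fell from 2425 ± 74.0 to 2051 ± 203 (-0.23, SE 0.07, adjusted p = 0.0412). The call of Acvrl1 was lost in 11 of the 18 alternatives, among them those without any 1 of the young mice, with an adjusted p of up to 0.0956. The group mean of the endothelial sum was lower in old aortae as well (33166 and 22007, as given above). Within the old group Efnb2 did not follow that sum in replicate 2, which had the highest old endothelial sum (32671) and 36.4 normalized counts of Efnb2 per 1000 endothelial marker counts, against 68.7 to 76.4 in the other 4 old aortae. The part of the endothelial cells in the differences of Efnb2 and Acvrl1 was not tested.

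The genes whose profile over the 10 libraries was most like that of Notch2 were Acap3 (root mean square difference of the centred log2 profiles 0.0655) and Abr (0.0698), among 11054 candidates. Both encode regulators of small GTPases, and they had log2 fold changes of 0.32 (adjusted p = 0.00403) and 0.42 (adjusted p = 0.00107, edgeR). For Jag2 they were the gene model Gm32618 (0.140) and Exoc3l4 (0.150), with log2 fold changes of 0.75 (adjusted p = 0.00459) and 0.82 (adjusted p = 0.00232, edgeR). The compared profiles hold the age difference of the called member. Fold changes of similar size and low adjusted p-values therefore follow from the choice and are given as a description.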

How the data were processed

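RNA was measured in 10 aortae, and groups were taken from the age given in the labels. The mice were treated as the replicates, and no covariate was used. The authors trimmed reads with fastp 0.20.0, aligned them to GRCm38 with STAR 2.7.0f and counted them per gene with featureCounts of Subread 1.6.4, and the deposited values are these whole-number counts, without normalization. Libraries were labelled as stranded mRNA libraries, and the strand setting of the counting was not given in the sources used here, so reads of opposite-strand genes may be included. Totals were 19640401 to 22886153 counts per library and did not differ between ages (exact permutation p = 0.754). Pooled over genes, the variance between 2 replicates of a group was 8.06 to 58.8 times that of counting error (chi-square over degrees of freedom). The pairs with old replicate 2 gave 36.5 or more, and all other pairs 31.6 or less. Genes with many counts weigh most in this ratio. It therefore does not describe low-count genes such as Hey1 and Dner, for which counting error can be a large part of the spread.

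Genes kept by filterByExpr (14614 of 28011 with a count) were tested with edgeR 4.0.16 (quasi-likelihood F test, robust, TMM) under R 4.3.3, adjusted by the Benjamini-Hochberg method and called at an adjusted p below 0.05. SEs were derived from the F statistic, and intervals are 95%. Normalized counts are counts divided by size factors of DESeq2 1.42.0. In simulated counts of these libraries with 200 genes changed by 2 times among 14488 tested, edgeR called 172 of the changed genes and 11 others. On the same counts DESeq2, with 14614 genes, called 179 of the changed genes and 29 others. The counts were drawn a single time, only for genes kept by filterByExpr, whereas the DESeq2 fit of the real counts adjusted 17134 genes. The simulation therefore cannot tell how certain its added calls of smaller changes are. Positions and exon lengths came from GENCODE M21 on the same build (54471 symbols matched). The authors used another release, which was not used here.

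The members, the pathway, arterial and marker lists and the tests were chosen with earlier results of these data known. Named were all members, the called genes of the pathway and arterial lists, the endothelial markers with the largest and smallest mean, and, for each called member, the 2 tested genes of at least 100 mean normalized counts with the most similar log2(normalized count + 1) profile. Ncstn, Neurl1a, Rbpj, Hes1, Nrarp, Aph1c, Bmx, Tek, Icam2, Smtn, Vwf, Col1a1, Col3a1, Lum, Ptprc and Lyve1 were named after their values were seen. Alternatives were DESeq2, other scalings, other filters, a replicate block, leaving out each mouse and, added after seeing the data, removal of a trend with GC content and length.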

Additional observations from a re-analysis of the deposited data

How the results depend on the processing

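Notch2 and Jag2, and no other member, were called under every alternative, the replicate block included (adjusted p = 0.0177 and 0.00469 in edgeR). Of all genes, 1132 (without young replicate 4) to 2367 (without young replicate 1) were called when 1 mouse was left out, 2325 by DESeq2 and 1261 with the replicate block, against 1676. Of the pathway list, 6 genes were called, 4 to 11 when 1 mouse was left out (11 without young replicate 1) and 3 with the replicate block. Scaling by library size alone called 2 higher and 4 lower in place of 1 and 5. DESeq2 called 8 of this list, 2 higher and 6 lower, adding Ncstn and Neurl1a (log2 fold change 0.63, adjusted p = 0.0606 in edgeR). Of the arterial list, 2 were called, 3 by DESeq2, 1 to 3 when 1 mouse was left out, 1 with upper-quartile scaling, 1 with library size alone and 1 with the replicate block. The log2 fold changes of 3 uncalled members changed sign when 1 mouse was left out: Notch4 (-0.23 to 0.043), Jag1 (-0.11 to 0.048) and Dll4 (-0.31 to 0.41). Ctbp1 was lost without a low-count filter (adjusted p = 0.0734) and Hdac2 with library size alone (0.0517). Over the alternatives, 291 values for single genes kept their direction and side of the threshold, 26 lost the call and 7 reversed. The cause of these changes was not tested.

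Mice that share a replicate number did not deviate together (correlations -0.29 to 0.13), so the numbers were not read as pairs, and with the replicate block Numbl (0.0846), Ctbp1 (0.0956), Hdac2 (0.0618) and Acvrl1 (0.0547) no longer passed the threshold. Among the uncalled members, only the interval of Dll4 (-0.82 to 1.00) reached the log2 fold change of Jag2, 0.81.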
